A study of Mus musculus with 8 samples.

Results

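The genes described here are the multi-domain members of the BCL2 family that set the threshold for mitochondrial apoptosis: the anti-apoptotic genes Bcl2, Bcl2l1 (the gene of BCL-XL), Bcl2l2 (the gene of BCL-W) and Mcl1, and the effector genes Bax, Bak1 and Bok. They were taken by symbol from the table of normalized counts, and all 7 were found among its 34478 genes. RNA had been sequenced from 4 primary murine pancreatic ductal adenocarcinoma (PDAC) cell lines, numbered #1, #3, #5 and #10. Each line was treated for 48 h with the MEK inhibitor trametinib (MEKi) at its own IC50, or with the solvent DMSO as control, and gave 1 library per treatment, 8 in all. All lines, and so both groups, came from mice of the genotype Ptf1a wt/Cre and Trp53 loxP/loxP, in which Cre expressed from the pancreatic Ptf1a locus deletes Trp53 in pancreatic cells. The age of the mice and the dose for each line were not given in the sources used here. Each line stands for 1 tumor culture, so the spread between lines includes the difference between tumors, and no library was repeated within a line and treatment.

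As background, the anti-apoptotic proteins hold the effectors and the BH3-only proteins in check through a groove on their surface. When BH3-only proteins occupy that groove, or bind the effectors directly, BAX and BAK form pores in the outer mitochondrial membrane and cytochrome c is released to start the caspase cascade. BOK is a related effector that is less dependent on the anti-apoptotic proteins. In PDAC, the MAPK pathway runs through MEK and ERK, and ERK is known to phosphorylate several of these proteins, so a part of the control lies at the protein level, which RNA does not show. The comparison asked what blocking MEK did to the transcripts of these genes.

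The table of all 8 libraries held between 30680091 and 36385719 normalized counts per library, which corresponds to about 29300000 to 45900000 reads, estimated from the step between low values. A count of 3 reads would stand at 2.33 to 3.72 normalized counts, far below each of the 7 genes. The MAPK feedback phosphatase gene Dusp6 was lower with trametinib in 4 of 4 lines (log2 fold change -2.51, limma, adjusted p = 0.00012), and 9 of 10 genes on a list of MAPK readouts were lower, against 25.6% of all genes tested, with values from -5.92 (Etv4) to 0.87 (Epha4, which did not pass). Trp53 was still counted at 275.4 to 355.1 in the DMSO libraries and at 196.4 to 277.9 with trametinib. A count per gene does not show whether the floxed exons were present. The epithelial markers Krt8, Krt18, Krt19 and Cdh1 were abundant in each library, whereas Epcam was listed at 0 in all libraries but those of line #3. Of the 5 epithelial or ductal markers tested, 4 were lower with trametinib (25.6% of all genes were), and their list summed to 207863 to 311036 with DMSO and to 99969 to 194441 with trametinib. The 8 fibroblast markers together summed to 94.9 to 365.9 with DMSO and 440.0 to 1258 with trametinib, in the latter mostly through Col1a1, with Lum listed at 0 in all libraries. The leukocyte markers summed to at most 238.6, the endothelial ones to at most 70.3 and the acinar ones to at most 252.3 in any library. The part of these shifts in the results for the BCL2 family was not tested.

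The members share a stretch of coding sequence in the BH1 region that forms part of the groove. It is shown here because the family is known to be alike there. Each run gives coding bases on the sense strand from GENCODE M21, and capitals mark the 12 bases of the aligned core:
Bcl2: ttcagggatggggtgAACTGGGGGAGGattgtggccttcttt
Bcl2l1: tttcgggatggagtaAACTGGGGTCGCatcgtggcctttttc
Bcl2l2: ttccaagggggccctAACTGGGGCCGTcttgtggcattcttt
Mcl1: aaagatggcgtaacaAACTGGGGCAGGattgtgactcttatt
Bax: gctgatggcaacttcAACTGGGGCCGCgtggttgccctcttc
Bak1: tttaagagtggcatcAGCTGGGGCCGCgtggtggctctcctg
Bok: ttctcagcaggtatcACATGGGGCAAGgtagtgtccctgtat
On GRCm38 these lie in exons at chr1:106712437-106712478 (minus strand) for Bcl2, chr2:152829559-152829600 (minus) for Bcl2l1, chr14:54884640-54884681 (plus) for Bcl2l2 and chr3:95659835-95659876 (plus) for Mcl1. Among the effectors they lie at chr7:45465216-45465257 (minus) for Bax, at chr17:27021302-27021343 (minus) for Bak1 and, split over 2 exons, between chr1:93689276 and 93694091 (plus) for Bok. The core had 6 of 12 bases in common among all 7 genes and 9 of 12 among the 4 anti-apoptotic genes. Over the whole 42 bases, 11 were the same in all 7 genes and 18 in the anti-apoptotic ones.

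Over their whole length the coding sequences differed widely, with 38.3% to 54.3% identical bases over the 21 pairs. Between members, no run of 31 bases was shared except 2 between Bcl2 and Bcl2l2, so the counts of one member were little open to reads of another. Reads could be shared with other annotated genes in some cases. Bcl2l2 shares 12.8% of its runs of 31 bases with other genes, nearly all with the overlapping read-through gene Gm20521, which was counted at 2.88 to 77.9. Bax shares 11.1%, mostly with Gm45808, which was listed at 0 in all libraries. Exons of Bak1 overlap those of Ggnbp1 on the opposite strand over 614 bases, 25.5% of its exons. Ggnbp1 itself rose by 0.63 on the log2 scale (limma, adjusted p = 0.00797). The libraries were stranded, but whether the counting used the strand was not given in the sources used here.

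**Figure D1:**
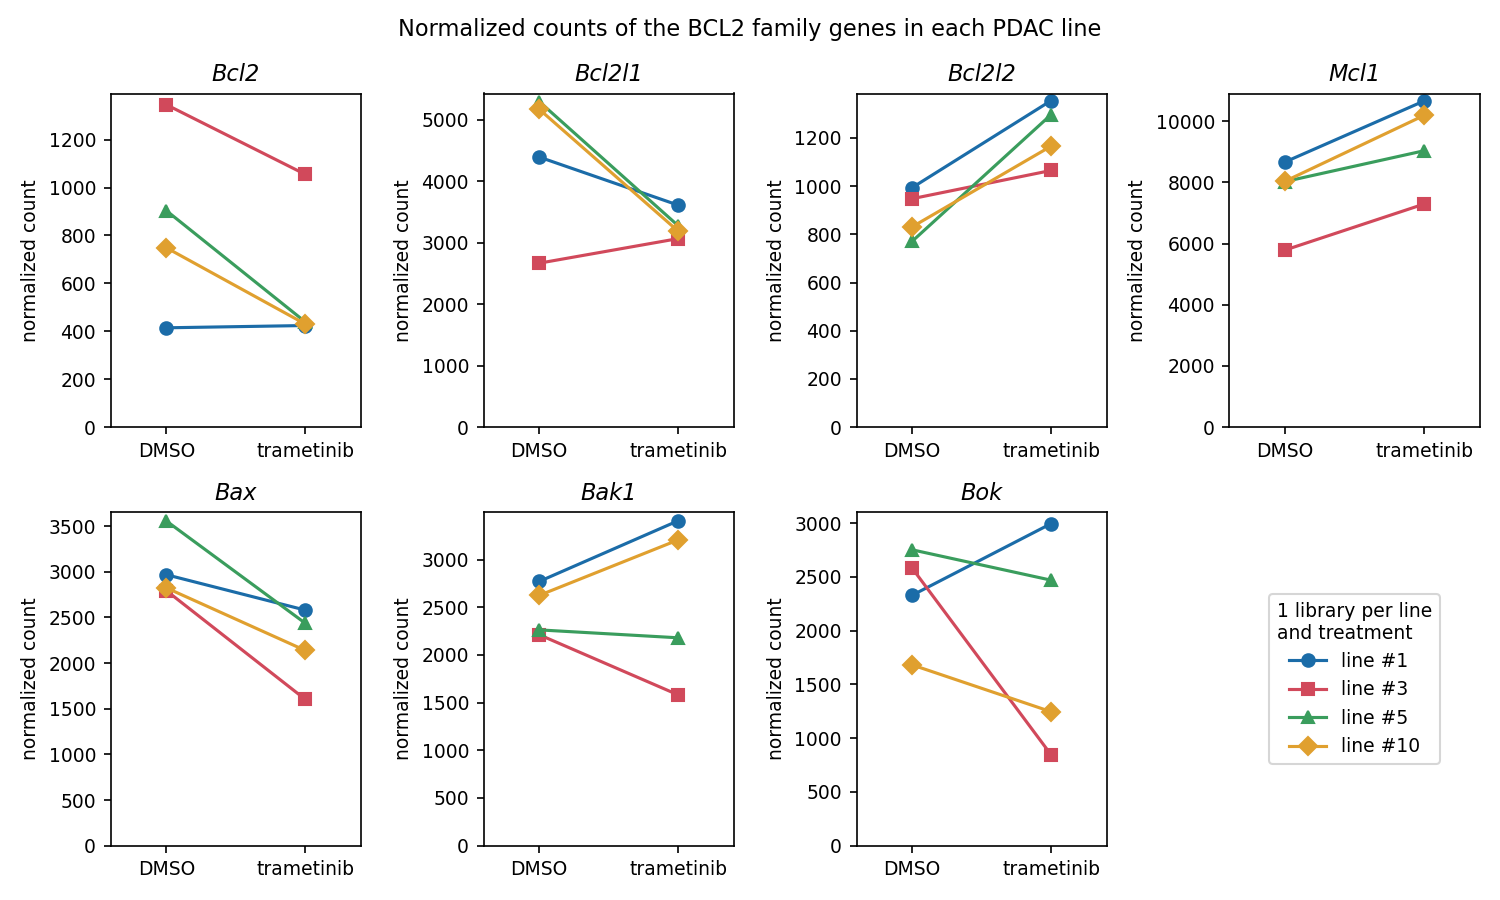
Normalized count of each gene (vertical axes, starting at 0) with DMSO and with trametinib, with 1 line per PDAC cell line and 1 library per point. Mcl1, Bcl2l2 and Bax moved in one direction in all 4 lines, whereas Bak1 and Bok parted, with line #1 rising to 3408 and 2997 and line #3 falling to 1581 and 844.2.

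Among the anti-apoptotic genes, Mcl1 and Bcl2l2 rose with trametinib, Bcl2 fell, and Bcl2l1 did not pass the test. Among the effectors, Bax fell, and neither Bak1 nor Bok passed. In bulk RNA, a change in the share of cells that express a gene and a change per cell cannot be told apart. In all, 4 of the 7 genes had an adjusted p under 0.05 in limma, fitted on log2(normalized count + 1) with the cell line as a block. This was close to the background, since trametinib moved 53.0% of the 15888 genes tested, 27.3% upward and 25.6% downward. That is 4341 genes higher and 4075 lower, a balance that shifted to 5315 and 3284 with libraries rescaled to equal totals. The median log2 fold change was -0.37 over the 7 genes and 0.07 over all genes tested. The sizes of the 7 changes, without regard to sign, lay at or below the 50.5th percentile of all genes tested. The scale understates changes of genes with low counts, which matters little at the counts of these genes.

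Mcl1, the short-lived family member that many tumor cells rely on, was counted at 8669, 5790, 8027 and 8039 with DMSO in lines #1, #3, #5 and #10. With trametinib the counts were 10662, 7293, 9035 and 10190 in the same order. Line #3 was lowest in both groups, and the groups overlapped only through it: in the other 3 lines every trametinib count was above every DMSO count. Within every line Mcl1 was higher with trametinib, by 12.6% in line #5 and by 23.0% to 26.8% in the other lines. In limma this was a log2 fold change of 0.29 (SE 0.08, 95% interval 0.10 to 0.48, adjusted p = 0.0218), a 1.22-fold rise. The call was lost with centring on the median (adjusted p = 0.0736), without trend (0.0572) and with no block for the line (0.258), all in limma. It was also lost without line #1, #5 or #10 (adjusted p = 0.0803, 0.0506 and 0.105 in limma). The response was even: the log2 fold changes of the 4 lines had an SD of 0.079, at the 4.21st percentile of all genes tested, while the mean count stood at the 95.9th percentile.

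Bcl2l2, whose protein BCL-W guards the same membrane, stood at 993.6, 947.8, 771.0 and 831.0 with DMSO. With trametinib it stood at 1355, 1065, 1297 and 1166. Each of the 4 trametinib libraries was above each DMSO library, which held for 31.3% of all genes tested in one direction or the other and for 15.1% upward. The smallest rise was in line #3 (12.4%) and the largest in line #5 (68.3%). Limma gave a log2 fold change of 0.46 (SE 0.12, 95% interval 0.18 to 0.74, adjusted p = 0.0153). The call was lost without line #1, #5 or #10 (adjusted p = 0.0548, 0.0659 and 0.0598 in limma). Gm20521, with which it shares sequence, had log2 fold changes of 0.24, -0.07, -0.35 and -2.57 in lines #1, #3, #5 and #10, and its part in the counts of Bcl2l2 was not tested.

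Bcl2, the founding anti-apoptotic gene, was the most variable of the anti-apoptotic genes at baseline, at 414.7, 1346, 903.9 and 748.9 with DMSO. With trametinib it was counted at 424.2, 1055, 439.1 and 430.3. Lines #1, #5 and #10 thus came to lie within 424.2 to 439.1, from very different starting points, and line #3 stayed far above them. Line #1, the lowest with DMSO, moved by 2.30%, whereas the change was -21.6%, -51.4% and -42.5% in lines #3, #5 and #10. The log2 fold change was -0.54 (SE 0.19, 95% interval -0.98 to -0.10), and the adjusted p of 0.0462 in limma was near the threshold. It was lost in 3 of 4 fits without 1 line, namely without line #3, #5 or #10, with adjusted p of 0.0539, 0.167 and 0.154 in limma. Equal totals, no filter, no trend and no block for the line also ended it (adjusted p = 0.0949, 0.0754, 0.086 and 0.356 in limma).

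Bcl2l1, whose protein BCL-XL is a main survival factor of epithelial cells, was counted at 4396, 2669, 5299 and 5174 with DMSO. The counts with trametinib were 3613, 3069, 3277 and 3188. The lines drew together, with a coefficient of variation of 27.6% with DMSO and 7.11% with trametinib. The change was -17.8%, -38.2% and -38.4% in lines #1, #5 and #10, and a log2 difference of 0.20 upward in line #3, the line with the lowest count at baseline. In limma the log2 fold change was -0.37 (SE 0.16, 95% interval -0.75 to 0.01, adjusted p = 0.0939). Without line #3 it was -0.56 (limma, adjusted p = 0.00487), so that line alone decided whether the change passed.

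Bax, the effector that moves from the cytosol to mitochondria, stood at 2968, 2794, 3557 and 2824 with DMSO. With trametinib it stood at 2580, 1602, 2436 and 2138. All trametinib libraries were below all DMSO libraries, as for 16.2% of all genes tested. The change was -13.0% in line #1, -42.7% in line #3, -31.5% in line #5 and -24.3% in line #10. Limma gave a log2 fold change of -0.49 (SE 0.11, 95% interval -0.76 to -0.22, adjusted p = 0.0108). It passed in each of the 4 fits that left out 1 line. Those of the other 3 genes called passed in 1 of 4 each. With no block for the line, the change of Bax did not pass (adjusted p = 0.0636 in limma). Trp53, a known activator of Bax transcription, is deleted by design in these tumors. Its remaining counts also fell (log2 fold change -0.53, limma, adjusted p = 0.0219). A link to the fall of Bax was not tested.

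Bak1, the effector that resides in the mitochondrial membrane, was at 2771, 2212, 2263 and 2625 with DMSO. With trametinib it was at 3408, 1581, 2180 and 3207. The change was 23.0% and 22.2% in lines #1 and #10, -28.5% in line #3 and -3.67% in line #5. In limma the log2 fold change was 0.01 (SE 0.15, 95% interval -0.33 to 0.36, adjusted p = 0.951), an interval that leaves room for a shift of 1.28-fold upward or to 0.794 of the DMSO level. The spread between lines went from a coefficient of variation of 11.1% to one of 33.3%.

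Bok, the effector whose protein is removed by degradation at the endoplasmic reticulum, was counted at 2330, 2582, 2753 and 1682 with DMSO. With trametinib it was counted at 2997, 844.2, 2470 and 1246. The change in line #3, -67.3%, was the largest on the log2 scale of any of the 7 genes in any line, while it was 28.6% in line #1, -10.3% in line #5 and -25.9% in line #10. Over the 4 lines limma gave a log2 fold change of -0.46 (SE 0.29, 95% interval -1.15 to 0.23, adjusted p = 0.221), and it was -0.08 without line #3. The SD of the 4 lines' log2 fold changes was 0.836, at the 86.5th percentile of all genes tested. The coefficient of variation rose from 20.1% to 53.5%.

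**Figure D2:**
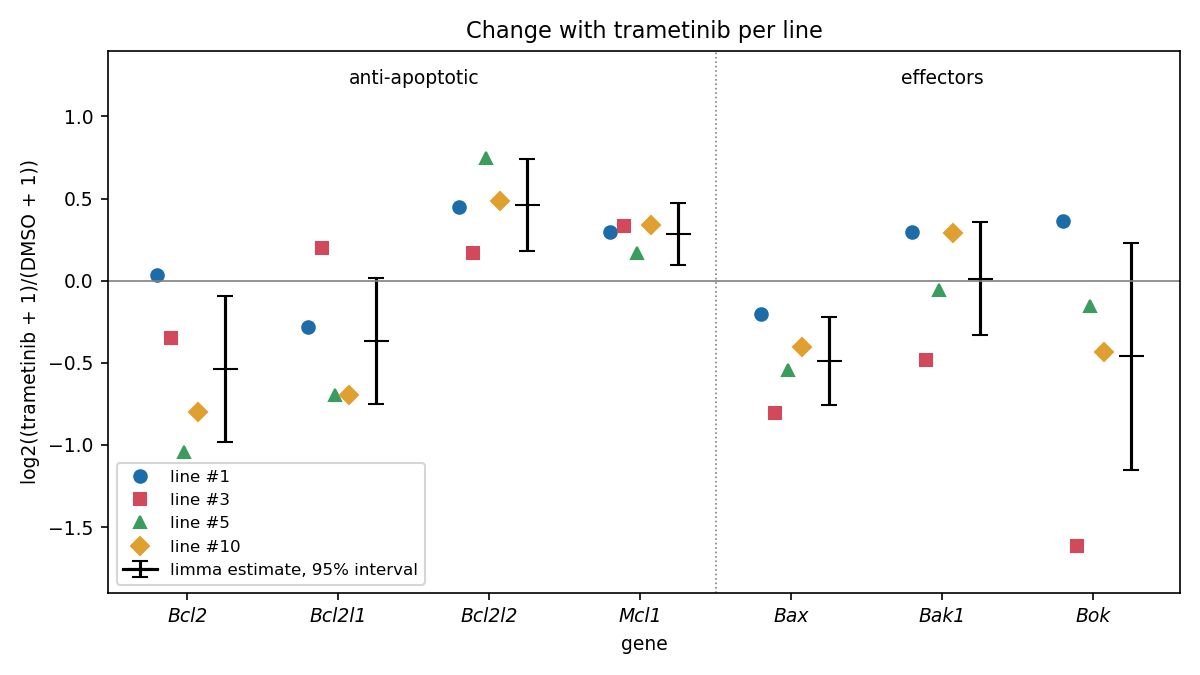
Log2 fold change of each gene with trametinib, with coloured symbols for the 4 lines and a black bar for limma's estimate and its 95% interval. Mcl1 lies close together at 0.17 to 0.34, while Bok runs from -1.61 in line #3 to 0.36 in line #1.

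Line #3 stood at an extreme for most of these genes. It had the lowest change of Bcl2l2, Bax, Bak1 and Bok, and the highest change of Bcl2l1. After trametinib it had the lowest count of 6 of the 7 genes, all but Bcl2, of which it had the highest. Line #3 also responded most over the genome, with a median size of change of 0.718 on the log2 scale over all genes tested, against 0.505 to 0.546 in the other lines. For the 7 genes the median size in line #3 was 0.351, between 0.298 in line #1 and 0.546 in line #5.

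To compare genes with each other, counts were divided by the exon length of each gene in kilobases. On this scale of levels Mcl1 had the highest mean, with 2233 ± 370 (SD, n = 4) per kb with DMSO and 2719 ± 439 with trametinib, followed by Bax with 1926 ± 226 and 1389 ± 275. Bok had 1270 ± 255 with DMSO and 1027 ± 550 with trametinib, Bak1 1025 ± 114 and 1078 ± 359, and Bcl2l1 956.1 ± 264 and 716.7 ± 51.0. These 3 changed places from line to line, so their order is not fixed by the data. Bcl2l2, with 198.5 ± 23.0 and 273.6 ± 29.3, was the next to lowest in all 8 libraries. Bcl2, with 93.2 ± 42.2 and 64.1 ± 34.1, was the lowest in all 8. With the longest transcript as the length, Bax ranked above Mcl1 in each of the 4 DMSO libraries and below it in each trametinib library, so the order of these genes at baseline rests on the length used. With the exon length, too, Bax was above Mcl1 in 1 DMSO library, that of line #3 (1773 against 1694 per kb).

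Of the summed level of the 4 anti-apoptotic genes per kb, Mcl1 took 67.4%, 64.3%, 62.2% and 62.7% in the DMSO libraries of lines #1, #3, #5 and #10. With trametinib its share was 73.3%, 67.6%, 71.5% and 74.8%. It thus grew in 4 of 4 lines, by 7.64 ± 3.84 percentage points (SD, n = 4), and the share of Bcl2l1 shrank in 4 of 4 lines, from 27.1% ± 4.05 to 19.1% ± 1.59 (SD, n = 4). Bcl2 went from 2.89% ± 1.88 to 1.80% ± 1.23, lower in 4 of 4 lines, although its count was not lower in line #1. Among the effectors, the share of Bak1 was higher in 4 of 4 lines, with a mean of 24.5% ± 3.97 before and 31.1% ± 6.45 after treatment, and that of Bax was lower in 3 lines and higher in line #3. A share can move because another gene of the sum moved, and these values were not tested.

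**Figure D3:**
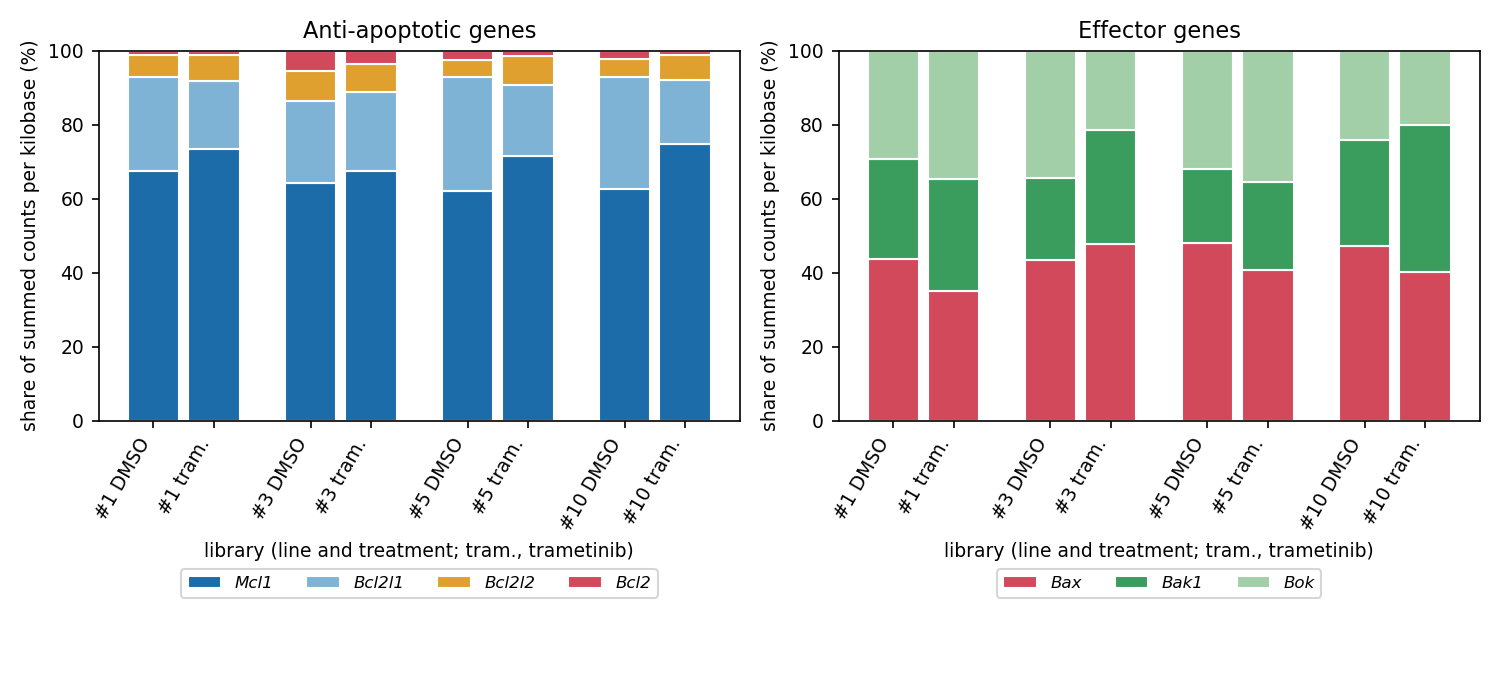
Share of each gene in the summed counts per kilobase of the 4 anti-apoptotic genes (left) and the 3 effectors (right), in percent, with 1 bar per library. Mcl1 takes 62.2% to 67.4% of the anti-apoptotic sum with DMSO and 67.6% to 74.8% with trametinib.

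Ratios of 2 genes within a library do not depend on how libraries were scaled. Of the 12 ratios of an anti-apoptotic to an effector gene, 5 were higher with trametinib in 4 of 4 lines, none was lower in 4 of 4, and 7 differed in direction between lines. The ratio of Mcl1 to Bax rose by 0.50, 1.14, 0.72 and 0.74 on the log2 scale in lines #1, #3, #5 and #10, with a mean of 0.77 ± 0.27 (SD, n = 4). The ratio of Bcl2l2 to Bax rose by between 0.65 in line #1 and 1.30 in line #5, with a mean of 0.95 ± 0.27. The other 3 were the ratios of Bcl2l2 to Bak1 and to Bok and that of Mcl1 to Bak1, the last by 0.00 in line #1 at this rounding.

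Of the ratios with Bcl2 or Bcl2l1 on top, that of Bcl2 to Bax was higher in 2 lines and lower in 2. Each of the others was lower in 3 of 4 lines and higher only in line #3. The ratio of Bcl2l1 to Bax was higher by 1.00 on the log2 scale in line #3 and lower by 0.08, 0.15 and 0.30 in lines #1, #5 and #10. Within the anti-apoptotic genes, Bcl2l1 fell against Mcl1 in 4 of 4 lines, with a mean change of -0.65 ± 0.40 (SD, n = 4), and Bcl2 fell against Mcl1 and against Bcl2l2 in 4 of 4. Within the effectors, Bax fell against Bak1 in 4 of 4 lines, by a mean of -0.50 ± 0.15. The anti-apoptotic sum per kb over the effector sum was 0.875, 0.644, 0.804 and 0.987 with DMSO and 0.909, 1.48, 0.974 and 1.18 with trametinib. It was higher in each line, by most in line #3 and by least in line #1. With the longest transcript as the length it was also higher in each line, but only from 0.838 to 0.85 in line #1. Bax, Bak1 and Bok were all lower in line #3 and in line #5.

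Some other genes of the pathway had larger changes than any of the 7 multi-domain genes, and the largest rises were among the BH3-only genes. Of 8 BH3-only genes, 4 were higher and 0 lower, against 27.3% and 25.6% of all genes tested. Bik, among the 4, passed the filter only through its trametinib libraries, with a mean of 1.39 with DMSO and 19.8 with trametinib. The median log2 fold change of the list was 1.01, which lies between Bid (0.69) and Hrk (1.335, limma, adjusted p = 0.239). Hrk was counted at only 0 to 29.9 with DMSO and was lower with trametinib in line #1, so this median rests on low counts. Bmf, a BH3-only gene that senses loss of attachment, went from 78.4, 413.2, 53.7 and 237.4 to 2296, 4591, 1894 and 4325, a log2 fold change of 4.41 (SE 0.26, limma, adjusted p = 0.00016). Pmaip1 (the gene of NOXA), whose protein binds MCL1, went from 1237, 901.0, 1035 and 869.7 to 6933, 3724, 6411 and 4511 (log2 fold change 2.38, SE 0.11, adjusted p = 9.4e-05 in limma). In both genes every trametinib library lay above every DMSO library, and NOXA's partner Mcl1 rose in the same 4 lines by far less.

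Bid, which links death receptors to mitochondria, rose by 0.69 (SE 0.09, adjusted p = 0.00117 in limma). Bik rose by 2.43 (adjusted p = 0.0238 in limma) from very low counts, at most 3.09 with DMSO and from 0 to 47.4 with trametinib, and line #10 had it listed at 0 with both treatments. Bik did not pass without line #3 (limma, adjusted p = 0.0686) or with no block for the line (0.15). Its log2 fold change moved with the pseudocount, to 3.40 at 0.1 (adjusted p = 0.0507 in limma) and 1.52 at 5, and without line #1 or #5 it had no value because it was below the filter. Bcl2l11, the gene of BIM, whose protein MEK signaling is known to destabilise, was counted at 1152, 850.5, 1388 and 1363 with DMSO and 1303, 1913, 1467 and 1849 with trametinib. All 4 lines had more of it with trametinib, but the log2 fold change of 0.47 did not pass (limma, adjusted p = 0.0699), although it did with libraries rescaled to equal totals (0.59, adjusted p = 0.0304). Bad had the smallest log2 fold change of the list, 0.06 (adjusted p = 0.665 in limma).

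Of the other BCL2 family genes, 4 of the 8 listed were tested and 1 was lower (25.6% of all genes were). Bcl2l15, a family gene known from the gut, went from 565.5, 56.0, 127.1 and 733.5 to 57.1, 13.7, 53.3 and 73.4 (log2 fold change -2.44, adjusted p = 0.00229 in limma). With no block for the line it did not pass (adjusted p = 0.0609 in limma). Bcl2l14 had the highest value of that list, 0.98 (adjusted p = 0.0858 in limma), at low counts. Bcl2a1b was listed at 0 in all libraries, and Bcl2a1d and Bcl2l10 stayed at or below 2.83, so neither entered the test.

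Among 6 partners in the outer membrane, 2 were lower and 0 higher, against the 25.6% lower and 27.3% higher of all genes. The porin genes Vdac1 and Vdac3 had log2 fold changes of -0.85 and -0.69 (adjusted p = 0.00178 and 0.00118 in limma). The gene of VDAC2, the porin that recruits BAK, had -0.21 (adjusted p = 0.211 in limma). Tmbim6, the gene of BAX inhibitor 1, had the highest value, 0.20 (adjusted p = 0.0934 in limma). Tmbim6 passed with equal totals (0.33, limma, adjusted p = 0.0178) and with quantile normalization (0.50, adjusted p = 0.00425).

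Among 6 genes of released factors and the apoptosome, 2 were lower and 1 higher, so that 3 of 6 passed against 53.0% of all genes. Cycs (cytochrome c) and the protease gene Htra2 fell by 0.95 and 0.55 on the log2 scale (adjusted p = 0.00121 and 0.00636 in limma), whereas Apaf1, the scaffold of the apoptosome, rose by 0.45 (adjusted p = 0.0238 in limma). Apaf1 did not pass with centring (0.0527), without trend (0.0563) or without line #5 or #10 (0.0986 and 0.0897, adjusted p in limma). With no block for the line, neither Htra2 nor Apaf1 passed (adjusted p = 0.0533 and 0.125 in limma). Of 7 genes that control the turnover of MCL1 and BOK, 5 were tested. The ubiquitin ligase gene Btrc rose by 0.43 (adjusted p = 0.0149 in limma). This call was lost without line #5 or #10 (0.0648 and 0.0525) and with no block (0.245, adjusted p in limma). Vcp, the gene of a segregase, fell by 0.41 (adjusted p = 0.00708 in limma). Vcp had -0.11 with quantile normalization (adjusted p = 0.303) and also lost the call with no block (0.128), both in limma. Huwe1, Usp9x and Fbxw7, which act on MCL1 stability, had values from -0.14 (Huwe1) to 0.01 (Usp9x) and did not pass.

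Over the 5 lists, 29 of 35 genes were tested, of which 6 were higher and 6 lower, with a median log2 fold change of 0.03. The 6 higher include Bik, which passed the filter only through its trametinib libraries. The share that passed, like that of the 7 multi-domain genes, is to be read against the 53.0% of all genes.

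**Figure D4:**
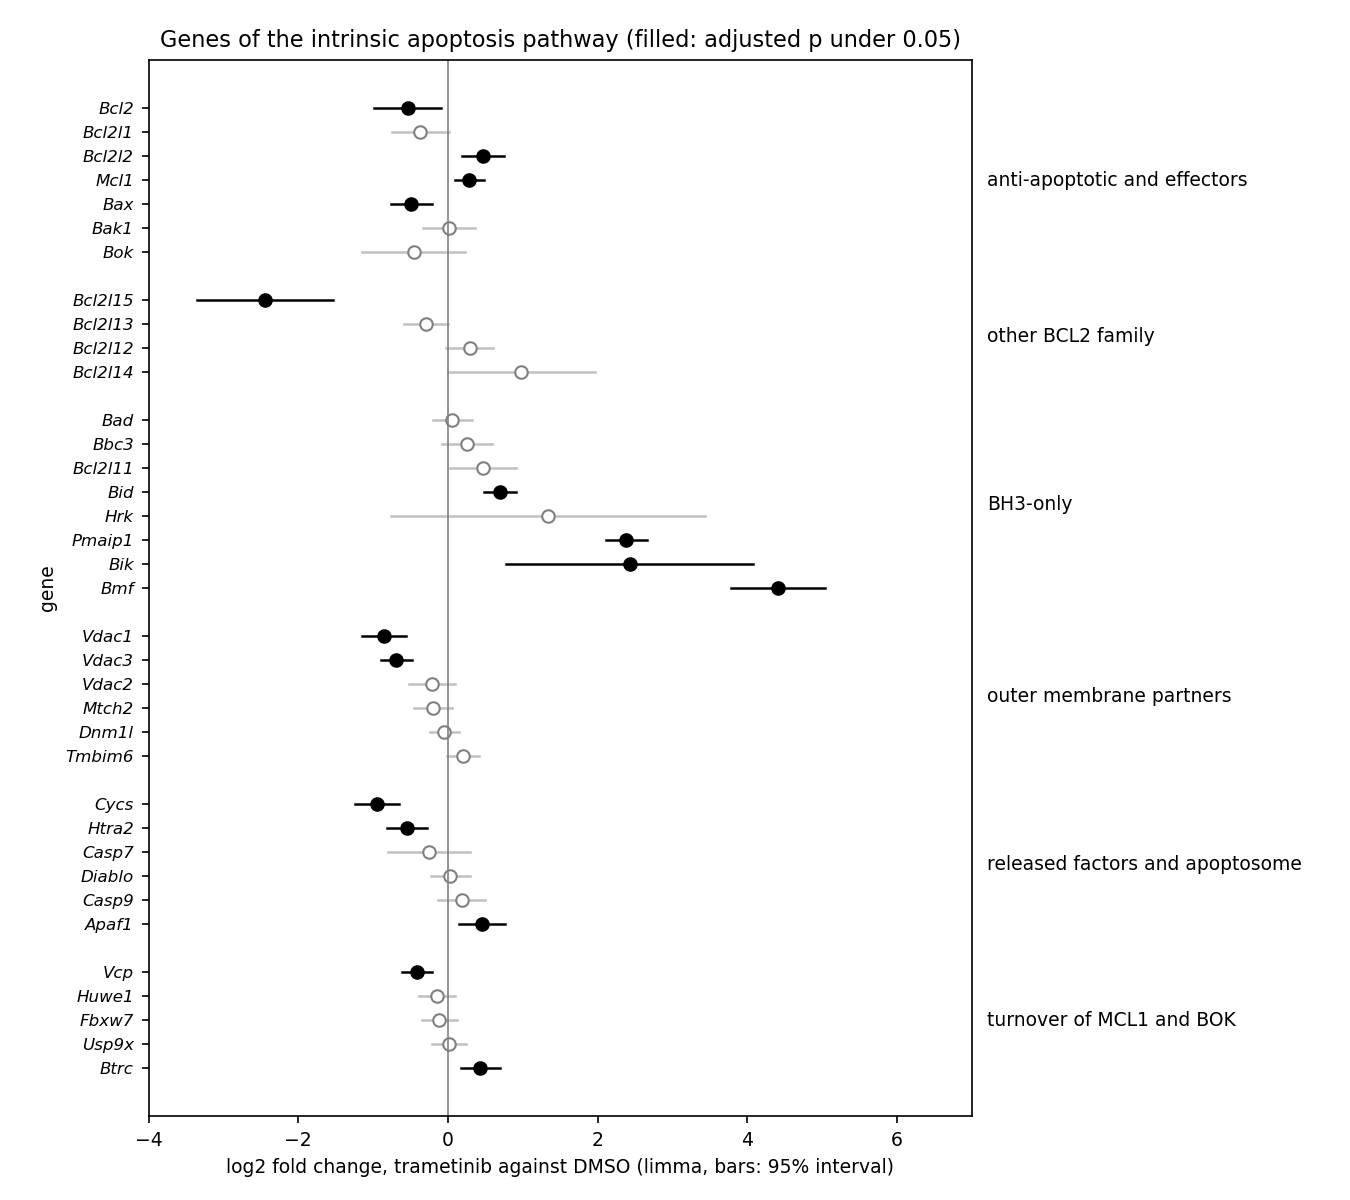
Log2 fold change with trametinib (limma, bars for the 95% interval) for the 7 genes and for the tested genes of 5 lists of the pathway, with filled points for an adjusted p under 0.05. The 7 genes stay between -0.54 and 0.46, while BH3-only genes reach 4.41 (Bmf) and Bcl2l15 falls to -2.44.

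The levels of the 7 genes over the 8 libraries did not follow one pattern. The closest pair was Bax and Bok, with a Pearson r of 0.82 of log2(count + 1), and the most opposed was Bcl2 and Mcl1, with an r of -0.90. These 8 points share lines and treatments, so r only describes these libraries. Among the 15888 genes tested, the most like Mcl1 were Rhoc (r = 0.99), Arf3 (0.988) and Snap29 (0.982). The most like Bax were Nsa2 (0.995), Timm13 (0.994) and Ngdn (0.991). For Bcl2l2 they were Lpin2 (0.983), Atg4c (0.981) and Maf1 (0.978), and for Bcl2 Mpdu1 (0.971), Abhd15 (0.953) and Mphosph9 (0.953). For Bcl2l1 they were 9330161L09Rik (0.964), Ccnk (0.928) and Gosr1 (0.924). Bak1 was most like Pi4k2a (0.988), Ankmy2 (0.964) and Lamtor2 (0.958), and Bok most like Utp23 (0.974), Ctu1 (0.962) and Ndufb2 (0.955).

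Mcl1 and Bcl2l2 moved upward and Bax downward in all 4 lines. Of these, the promoters of Mcl1 and Bax are shown because each holds a match to a searched motif, whereas that of Bcl2l2 held none. Each run is the 250 bases before the RefSeq start of transcription (GRCm38.p6, sense strand), at chr3:95658471-95658720 (plus strand) for Mcl1 and chr7:45466899-45467148 (minus strand) for Bax, with the match in capitals:
Mcl1: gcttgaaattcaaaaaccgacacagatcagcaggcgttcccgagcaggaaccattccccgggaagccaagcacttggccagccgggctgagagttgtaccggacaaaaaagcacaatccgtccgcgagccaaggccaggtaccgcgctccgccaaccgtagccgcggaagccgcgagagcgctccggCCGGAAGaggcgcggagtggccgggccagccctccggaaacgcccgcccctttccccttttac
Bax: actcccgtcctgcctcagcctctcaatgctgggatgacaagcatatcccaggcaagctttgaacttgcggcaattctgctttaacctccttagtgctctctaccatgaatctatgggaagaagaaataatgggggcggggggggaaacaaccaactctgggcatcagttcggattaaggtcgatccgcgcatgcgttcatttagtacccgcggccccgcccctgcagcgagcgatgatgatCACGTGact
Both strands were searched for 5 motifs: ETS (CCGGAAG), AP-1 (TGANTCA), E-box (CACGTG), E2F (TTTNNCGC) and FOXO (GTAAACA), none of which holds another. Mcl1 held the ETS letters, which 6.91% of 32851 promoters of this length hold, and Bax held the E-box letters, which 6.02% hold. One of the 3 RefSeq starts of Bcl2l1 held the E2F letters (4.28% of promoters). The windows of Bcl2, Bak1 and Bok also held none of the 5. A match of letters is a description of the sequence and no sign of binding.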

How the data were processed

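RNA was extracted from 4 DMSO and 4 trametinib cultures and made into stranded polyA libraries by the authors. The submitters' processing notes list CASAVA 2.17, Salmon 0.12, DESeq2 1.18 and the build mm10, without their roles. The deposited table holds normalized counts by gene symbol, a signal that the authors had already put on a common scale across libraries. They are not whole reads (of values under 20 steps, 39.7% to 62.4% were within 0.02 steps of a whole multiple), so read numbers are estimates and no count model was used.

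The log2 of each value plus a pseudocount of 1 entered limma 3.58.1 (R 4.3.3, eBayes with trend, cell line as a block). Genes with a mean under 10 were left out and 15888 were tested, two-sided, with Benjamini-Hochberg adjustment and a threshold of 0.05. All 7 genes passed the filter. Both libraries of a number come from the same cell line, and their deviations from the treatment means correlated by 0.631 to 0.724 across genes. The fit was tested on simulated data. P-values weigh the mean change against the spread of the changes of the 4 lines, with variances moderated over all genes tested. Differences in level between lines are taken up by the block.

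The genes and lists were chosen with earlier results of these data known. Named genes are the 7 genes, Dusp6, Trp53, list genes with an adjusted p under 0.05 and a log2 fold change of at least 1 in size, the highest and lowest tested gene of each list, and the 3 genes most correlated with each of the 7. Of the readout and marker lists, which serve as checks, most genes that meet the rule are given only in counts and sums. Others were chosen after their values were seen, as was the BH1 stretch. Gene models are GENCODE M21, promoters RefSeq, matched by symbol for 7 of 7. Alternatives were pseudocounts of 0.1 and 5, equal totals, quantile normalization, centring on the median, no filter, a filter at 50, no block, eBayes without trend or robust, and leaving out each line. Python 3.11.15, numpy 2.4.6, pandas 2.3.3, biopython 1.88 and matplotlib 3.10.9 were used for tables, sequences and plots. Some genes of the pathway and a part of the mouse genotype are not reported here.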

Additional observations from a re-analysis of the deposited data

Results flagged for a closer look

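With trametinib, Bcl2 in line #3 stood at 1055 normalized counts, far from the other 3 lines, whose values lie close together. Of 21 sets of 4 values examined this way (the DMSO counts, the trametinib counts and the log2 fold changes of each of the 7 genes), 1 stood out, and about 1 in 20 would by chance.

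In 4 of the 7 genes, lines moved in opposite directions, on the log2 scale of change. Bcl2 was at 0.03 in line #1 and lower in the other lines. Bcl2l1 was at 0.20 in line #3 and lower in the others. Bak1 was at 0.30 in line #1 and 0.29 in line #10, and lower in the remaining lines. Bok was at 0.36 in line #1 and lower in the others. With 1 library per line and treatment, these differences between lines were not tested.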

How the results depend on the processing

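The number of genes higher and lower was 2205 and 2347 with no block for the line, 5315 and 3284 with equal totals, and 3383 to 4195 and 3302 to 4007 without 1 line. The log2 fold change of Bcl2 was no longer past the threshold with equal totals (-0.41), no filter (-0.54), no replicate block (-0.54) and eBayes without trend (-0.54), and ran from -0.73 to -0.37 without 1 line. That of Mcl1 was not past it with centring on the median (0.23), no replicate block (0.29) and eBayes without trend (0.29), and ran from 0.27 to 0.33 without 1 line. It passed in only 1 of those 4 fits, without line #3, as did that of Bcl2l2 (0.37 to 0.56). Bax lost its call only with no replicate block (-0.49, adjusted p = 0.0636 in limma). Bcl2l1 ran from -0.56 to -0.26 without 1 line. Bak1 turned to -0.047 with centring on the median and ran from -0.083 to 0.18 without 1 line. Bok ran from -0.73 to -0.08. Equal totals moved the median of all genes to 0.20. The pathway lists counted 9 higher and 6 lower with equal totals, 3 higher and 3 lower with no replicate block, and 3 to 6 higher without 1 line. Small values turned for Bbc3 (-0.051, quantile normalization), Dnm1l (0.081 with equal totals and 0.078 with quantile normalization), Diablo (-0.028 with centring, and -0.051 to 0.096 without 1 line), Huwe1 (0.12, quantile normalization), Usp9x (-0.046 with centring, and -0.033 to 0.087 without 1 line) and Fbxw7 (0.014, equal totals). With the longest transcript as length, Mcl1 took 52.2% and 61.5% of the anti-apoptotic sum and Bax 51.2% and 46.9% of the effector sum, with DMSO and trametinib. Of the list genes called, Bcl2l15, Bik, Apaf1, Htra2, Btrc and Vcp lost the call with no replicate block, Vcp also with quantile normalization (-0.11), Apaf1 with centring, eBayes without trend and without line #5 or #10, Btrc without line #5 or #10, and Bik with a pseudocount of 0.1 and without line #3. Calls were gained by Bcl2l11 and Bcl2l12 (equal totals), Tmbim6 (equal totals and quantile normalization), Bcl2l13 (centring and without line #10) and Casp9 (without line #3). The causes of these changes were not tested. The signs of the 6 genes other than Bak1 held in all 14 alternatives. With 4 lines, small shifts such as that of Bak1 could not be resolved.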
